A study of Homo sapiens with 12 samples.

Results

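The transcripts of 4 cadherins (CDH1, CDH2, CDH3 and CDH13) and 3 catenins (CTNNA1, CTNNB1 and CTNND1) were followed in MCF10AT cells with and without depletion of EP300, a histone acetyltransferase that acts as a transcriptional coactivator. The 7 genes were taken by symbol and correspond to 8 of the 29094 accession rows of the count table, because CDH13 has 2 rows. MCF10AT is a human breast epithelial cell line, established in culture, that carries HRasG12V. EP300 was targeted with 2 independent shRNAs, in the lines EP300 KD1 and EP300 KD2, and 2 non-silencing controls, NS1 and NS2, were set beside them, with 3 RNA-seq libraries in each of the 4 groups. Every group carried HRasG12V, had been transduced with lentiviral particles and selected with puromycin, and grew in the same medium containing horse serum, epidermal growth factor, insulin, cholera toxin and hydrocortisone. The labels do not name a control for each hairpin, and KD1 was set against NS1 and KD2 against NS2 by their shared number. Whether replicate libraries stem from different cultures is not stated, so the p-values below rest on a library-to-library spread that could be purely technical. In these bulk libraries a lower level in every cell and a smaller number of expressing cells cannot be told apart.

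Classical cadherins are calcium-dependent adhesion receptors that bind cadherins on the neighbouring cell. Inside the cell their tails hold p120-catenin (CTNND1), which keeps the cadherin at the membrane, and beta-catenin (CTNNB1), which binds alpha-catenin (CTNNA1), the link to actin. Beta-catenin outside the junction can enter the nucleus as a coactivator of TCF and LEF factors. E-cadherin (CDH1) is the main cadherin of epithelia, P-cadherin (CDH3) marks basal mammary cells, and N-cadherin (CDH2) prevails in neural and mesenchymal cells. A loss of E-cadherin with a gain of N-cadherin is the cadherin switch known from epithelial-mesenchymal transition.

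Library totals ran from 31396653 to 45606950 counts, and 13424 rows passed the filter on low counts, including 1 row for each of the 7 genes. Levels are given in CPM, read counts relative to a library size that was scaled by TMM, a correction for library composition, as mean ± SD of 3 libraries. A row passed the test when its adjusted p from edgeR's quasi-likelihood test was under 0.05. EP300 itself was at 171, 177 and 167 CPM in NS1 and at 108, 106 and 108 CPM in KD1. It was at 165, 180 and 177 CPM in NS2 and at 95.1, 99.9 and 92.3 CPM in KD2, with each of the 6 knockdown libraries under each of the 6 controls. The log2 changes of EP300 were -0.68 (SE 0.03, adjusted p = 2.6e-12) in KD1 and -0.86 (adjusted p = 1.1e-13) in KD2. Of the mammary epithelial markers checked, KRT5, KRT17, KRT18, ITGA6, TP63 and EPCAM were well expressed, whereas KRT14 did not exceed a group mean of 1.03 CPM. The coding row of KRT8 did not exceed 0.035 CPM, and its non-coding row had group means from 2.20 to 3.32 CPM. How reads common to both KRT8 rows were handled is not given, so the level of KRT8 is uncertain.

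In both knockdown lines the E-cadherin transcript fell to 0.552 and 0.481 of its control level, and the N-cadherin transcript rose 2.82-fold and 2.97-fold. P-cadherin fell less, and T-cadherin (CDH13) rose from a low level. Among the catenins the changes were small: CTNNA1 fell, CTNNB1 rose, and CTNND1 was barely measured. In KD1 against NS1, 6 of the 7 genes passed the test, 3 higher and 3 lower, where 64.9% of all tested rows passed (32.6% higher, 32.3% lower). In KD2 against NS2 all 7 passed, 3 higher and 4 lower, where 57.8% of all tested rows passed (27.9% higher, 29.9% lower). With such backgrounds the counts alone say little about these genes, and their sizes carry the description. The median log2 change over the 7 genes was -0.11 in KD1 and -0.12 in KD2, against -0.0058 and -0.0021 over all tested rows. With scaling by library totals alone, 61.3% of the calls in KD2 against NS2 were higher, against 48.2% with TMM. The direction of each of the 7 genes was the same under both scalings in both knockdown comparisons.

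**Figure D1:**
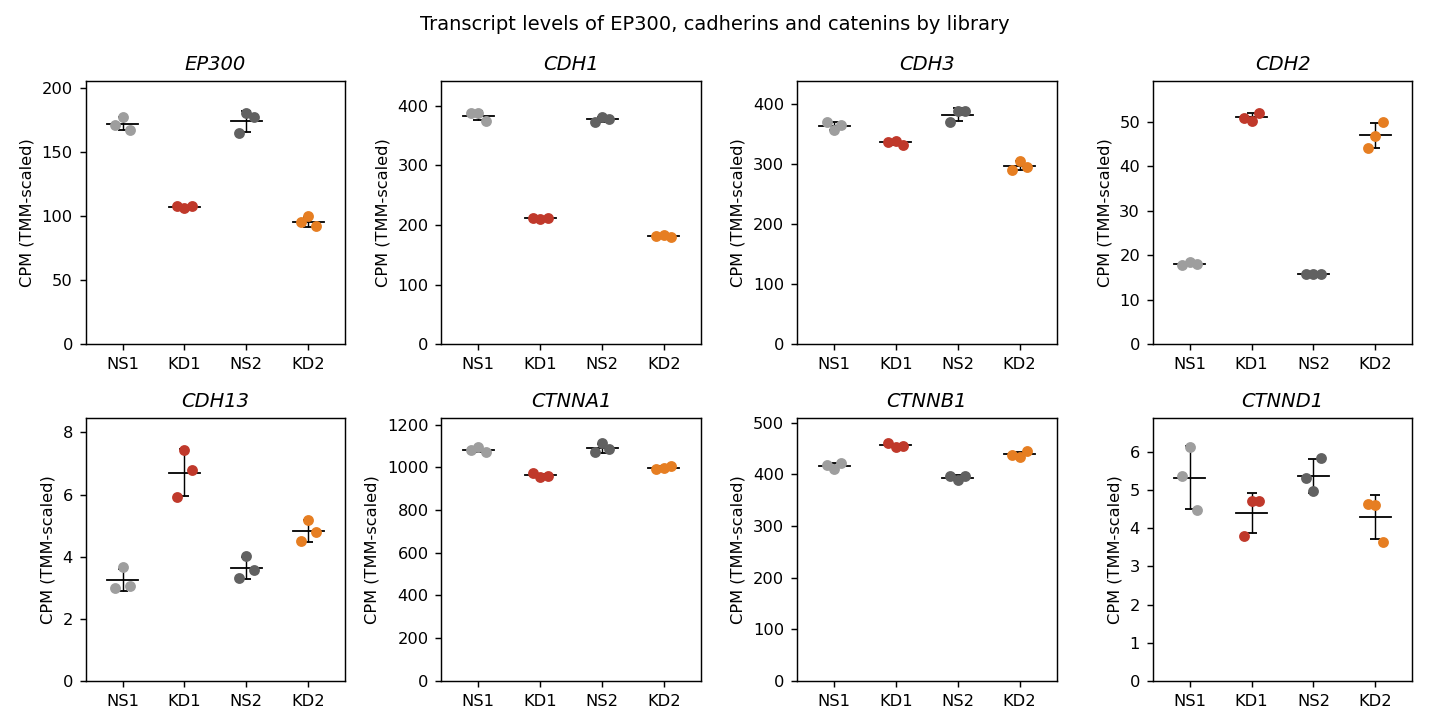
Transcript level of EP300 and each cadherin and catenin in CPM (TMM-scaled, y axis from 0) in each library of NS1, EP300 KD1, NS2 and EP300 KD2 (x axis); points are libraries, lines and bars are the mean and SD of 3. CDH1 stands at 383 and 377 CPM in the controls and at 211 and 181 CPM in the knockdown lines, and CDH2 at 18.1 and 15.8 CPM against 51.1 and 47.0 CPM.

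CDH1 (NM_004360, GRCh38 chromosome 16, 68737292 to 68835537) encodes E-cadherin. It was at 388, 387 and 374 CPM in the NS1 libraries and at 212, 210 and 212 CPM in the KD1 libraries. In NS2 it was at 373, 381 and 378 CPM and in KD2 at 181, 183 and 180 CPM. The knockdown libraries lay far below the controls, with no overlap, and the KD2 libraries lay below those of KD1. The mean went from 383 ± 7.75 to 211 ± 0.744 CPM in KD1, a log2 change of -0.86 (SE 0.02, adjusted p = 9.6e-17). It went from 377 ± 3.75 to 181 ± 1.71 CPM in KD2, a log2 change of -1.06 (SE 0.02, adjusted p = 7.6e-18). Of all tested rows, 87.2% had a smaller absolute change than CDH1 in KD1, and 92.2% in KD2. The fall was larger in KD2 (difference -0.20, SE 0.03, adjusted p = 3.5e-05), in a test of the difference that 50.8% of all rows passed. The 2 controls overlapped for CDH1 and differed by -0.02 (adjusted p = 0.50).

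CDH2 (NM_001792, chromosome 18, 27932879 to 28177130) encodes N-cadherin. It was at 17.9, 18.4 and 17.9 CPM in NS1 and at 50.9, 50.2 and 52.0 CPM in KD1. It was at 15.8, 15.7 and 15.8 CPM in NS2 and at 44.2, 46.8 and 50.0 CPM in KD2. All 6 knockdown libraries were therefore far above all 6 controls, and the KD2 libraries spread more widely than those of the other groups. The log2 change was 1.50 in KD1 (SE 0.04, adjusted p = 3.7e-16), or 2.82-fold. It was 1.57 in KD2 (SE 0.04, adjusted p = 4.9e-16), or 2.97-fold. Of all tested rows, 94.7% moved less than CDH2 in KD1, and 96.4% in KD2. The 2 rises did not differ by the test of their difference, which was 0.07 with a 95% interval from -0.05 to 0.20 (adjusted p = 0.35). The controls themselves differed for CDH2: every NS2 library lay below every NS1 library, with a log2 change of -0.20 (adjusted p = 0.0067), a step much smaller than either rise.

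The bases before the main annotated start of CDH2 are shown with those of CTNNB1 and CTNNA1, since N-cadherin rose with a larger step than any other of the 7 genes and both catenins moved only slightly in the same libraries. Each run is the 250 bases upstream of the start from RefSeq (GRCh38.p14), written 5′ to 3′ on the gene's own strand. They are chr18:28177131-28177380 (minus strand), chr3:41199255-41199504 (plus strand) and chr5:138753175-138753424 (plus strand). Promoters of 3 of the 7 genes were matched in the table used. CDH1, CDH3, CDH13 and CTNND1 were not among them. Capitals mark the GC box, which has the letters GGGCGG. They also mark the CCAAT box, spelled as its name is, and the TATA motif, which was searched as TATAA. Each motif was searched for on both strands, so that its reverse complement is in capitals too.
CDH2: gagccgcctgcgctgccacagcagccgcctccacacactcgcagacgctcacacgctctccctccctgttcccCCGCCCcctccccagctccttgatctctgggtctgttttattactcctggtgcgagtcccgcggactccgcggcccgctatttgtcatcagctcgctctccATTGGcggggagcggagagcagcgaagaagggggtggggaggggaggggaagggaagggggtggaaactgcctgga
CTNNB1: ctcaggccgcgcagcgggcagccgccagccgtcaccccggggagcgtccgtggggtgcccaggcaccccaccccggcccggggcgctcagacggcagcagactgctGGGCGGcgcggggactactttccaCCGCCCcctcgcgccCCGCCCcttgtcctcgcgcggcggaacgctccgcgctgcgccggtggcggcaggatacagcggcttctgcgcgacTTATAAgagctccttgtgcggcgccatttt
CTNNA1: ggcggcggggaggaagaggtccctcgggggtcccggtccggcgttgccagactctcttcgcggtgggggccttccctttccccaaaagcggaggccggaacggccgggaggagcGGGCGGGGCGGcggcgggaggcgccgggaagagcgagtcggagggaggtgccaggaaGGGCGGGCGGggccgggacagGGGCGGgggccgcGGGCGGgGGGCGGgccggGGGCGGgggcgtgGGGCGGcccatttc
The CDH2 run holds 1 GC box at -177 and 1 CCAAT box at -76 from the start, and no TATA motif. The CTNNB1 run holds 3 GC boxes and 2 overlapping TATA matches, 1 on each strand, close to the start. The CTNNA1 run holds 9 GC boxes, some of which overlap, and neither a CCAAT box nor a TATA motif. GC content is 66.0% for CDH2, 74.4% for CTNNB1 and 80.0% for CTNNA1. Among 35116 windows of the same length in the table, 42.6% hold a GC box, 32.0% a CCAAT box and 18.9% a TATA motif, on either strand. The general E-box CANNTG is in 61.8% of the windows. Its narrower form CACCTG, searched on both strands, is known to be bound by SNAI and ZEB proteins, is included in the general form, and is in 17.5% of the windows. Neither is in any of the 3 runs shown. These are matches of letters in a short window and nothing more.

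The balance between both cadherins was read within each library, as CDH2 counts per base of transcript in percent of CDH1 counts per base, which needs no scaling between libraries. The transcripts used were 4332 bases long for CDH2 and 4889 for CDH1. CDH2 was at 5.21%, 5.36% and 5.41% of CDH1 in NS1 and at 27.2%, 26.9% and 27.7% in KD1. It was at 4.79%, 4.67% and 4.71% in NS2 and at 27.5%, 28.8% and 31.4% in KD2. No knockdown library came near a control library, yet the E-cadherin transcript was still the more abundant of the pair in all 12. The log2 ratio rose by 2.36 (SE 0.02, 5.12-fold) from NS1 to KD1 and by 2.63 (SE 0.06, 6.19-fold) from NS2 to KD2. Each comparison gave a two-sided exact permutation p of 0.1, the smallest that 3 against 3 libraries allow. The ratio changed by -0.17 from NS1 to NS2, also with a two-sided exact permutation p of 0.1. When both controls were pooled, the rises were 2.44 and 2.54.

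**Figure D2:**
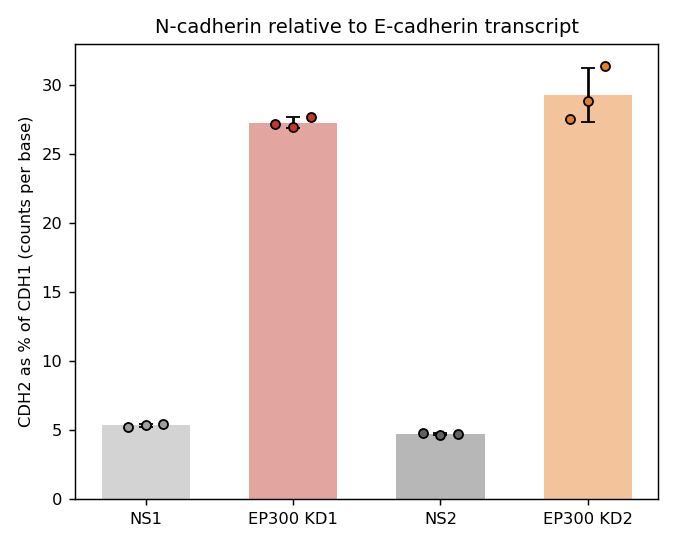
CDH2 counts per base as a percentage of CDH1 counts per base in the same library (y axis, from 0) for each group (x axis); bars and error bars are the mean and SD of 3 libraries, points are libraries. The means are 5.33% and 4.72% in NS1 and NS2, and 27.3% and 29.3% in EP300 KD1 and EP300 KD2.

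CDH3 (NM_001793, chromosome 16, 68645310 to 68733771), the P-cadherin gene beside CDH1, was at 369, 356 and 364 CPM in NS1 and at 336, 339 and 332 CPM in KD1. It was at 369, 388 and 387 CPM in NS2 and at 290, 304 and 295 CPM in KD2. The knockdown libraries were below their controls without overlap, by a narrow gap in KD1 and a wider one in KD2. The log2 change was -0.11 (SE 0.03, adjusted p = 0.00083) in KD1 and -0.36 (SE 0.03, adjusted p = 5.2e-10) in KD2, and only 27.1% and 69.8% of rows moved less. The difference between the 2 changes was -0.25 (adjusted p = 1.4e-05). Because CDH1 fell more than its neighbour, the ratio of CDH3 to CDH1 counts went from 0.947 ± 0.0271 in NS1 to 1.59 ± 0.0219 in KD1, and from 1.01 ± 0.0202 in NS2 to 1.63 ± 0.0336 in KD2 (SD, n = 3).

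CDH13 (NM_001220492, chromosome 16, 82626969 to 83800640) encodes T-cadherin, which is anchored by a lipid and has no tail to bind catenins. It had 103 to 259 counts per library. Its level was 3.01, 3.66 and 3.07 CPM in NS1 and 5.90, 7.42 and 6.79 CPM in KD1. In NS2 it was 3.32, 4.03 and 3.57 CPM and in KD2 4.50, 5.19 and 4.78 CPM. The KD2 libraries lay above their controls by a small margin and below all KD1 libraries. The log2 change was 1.05 (SE 0.11, adjusted p = 1.3e-07) in KD1 and 0.40 (SE 0.12, adjusted p = 0.0055) in KD2, with a difference of -0.65 (SE 0.16, adjusted p = 0.0024). The row's accession pairs with a transcript of only 810 bases, and the other CDH13 row of the table (NM_001220490) is listed at 0 in all 12 libraries. How reads common to both rows were handled is not given in the sources used here, so the counts of CDH13 are uncertain.

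CTNNA1 (NM_001903, chromosome 5, 138753425 to 138935034), which encodes alpha-catenin, was the most abundant of the 7 transcripts. It was at 1079, 1096 and 1071 CPM in NS1 and at 972, 956 and 961 CPM in KD1. It was at 1070, 1112 and 1085 CPM in NS2 and at 993, 997 and 1006 CPM in KD2. The groups did not overlap in either comparison, but the step was small. The log2 change was -0.17 (SE 0.02, adjusted p = 5.3e-07) in KD1 and -0.12 (SE 0.02, adjusted p = 2.6e-05) in KD2. The KD2 value shrank to -0.056 (adjusted p = 0.015) with library totals alone and to -0.075 with upper-quartile factors. Their difference was 0.04 with a 95% interval from -0.01 to 0.10 (adjusted p = 0.22), and it passed with library totals alone (0.11, adjusted p = 0.0018), with upper-quartile factors (0.07, adjusted p = 0.026) and with no filter (0.10, adjusted p = 0.035). LRRTM2 lies within the CTNNA1 interval and had 66 counts over all libraries.

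CTNNB1 (NM_001098210, chromosome 3, 41199505 to 41240443), which encodes beta-catenin, was at 417, 410 and 422 CPM in NS1 and at 459, 453 and 456 CPM in KD1. It was at 396, 389 and 396 CPM in NS2 and at 437, 433 and 444 CPM in KD2. It thus moved opposite to CTNNA1, above its controls in every knockdown library. The log2 change was 0.13 (SE 0.02, adjusted p = 2.2e-05) in KD1 and 0.16 (SE 0.02, adjusted p = 3.5e-06) in KD2. The difference was 0.02 with a 95% interval from -0.03 to 0.08 (adjusted p = 0.52), and it passed with library totals alone (0.09, adjusted p = 0.011). The controls differed by -0.08 (adjusted p = 0.0064), with every NS2 library below every NS1 library, a smaller step than either rise.

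CTNND1 (NM_001331, chromosome 11, 57761802 to 57819540), the p120-catenin gene, had only 118 to 203 counts per library. It was at 5.37, 6.12 and 4.48 CPM in NS1 and at 3.79, 4.70 and 4.70 CPM in KD1, and these libraries overlapped. It was at 5.31, 4.97 and 5.84 CPM in NS2 and at 4.64, 4.62 and 3.64 CPM in KD2, without overlap. The log2 change was -0.26 (SE 0.13, adjusted p = 0.077) in KD1, which did not pass, and -0.32 (SE 0.13, adjusted p = 0.042) in KD2. The KD2 call was lost with library totals alone (-0.25, adjusted p = 0.11), with upper-quartile factors (-0.26, adjusted p = 0.089), with DESeq2 (-0.30, adjusted p = 0.067), with no filter (-0.26, adjusted p = 0.074), and without NS2 replicate 1 (-0.32), NS2 replicate 3 (-0.25) or KD2 replicate 3 (-0.21). The KD1 difference passed without NS1 replicate 3 (-0.38, adjusted p = 0.019) and with both controls pooled (-0.27, adjusted p = 0.037). A row for the read-through transcript TMX2-CTNND1 overlaps most of the gene and is listed at 0 in all libraries, so the level of CTNND1 is uncertain as well.

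**Figure D3:**
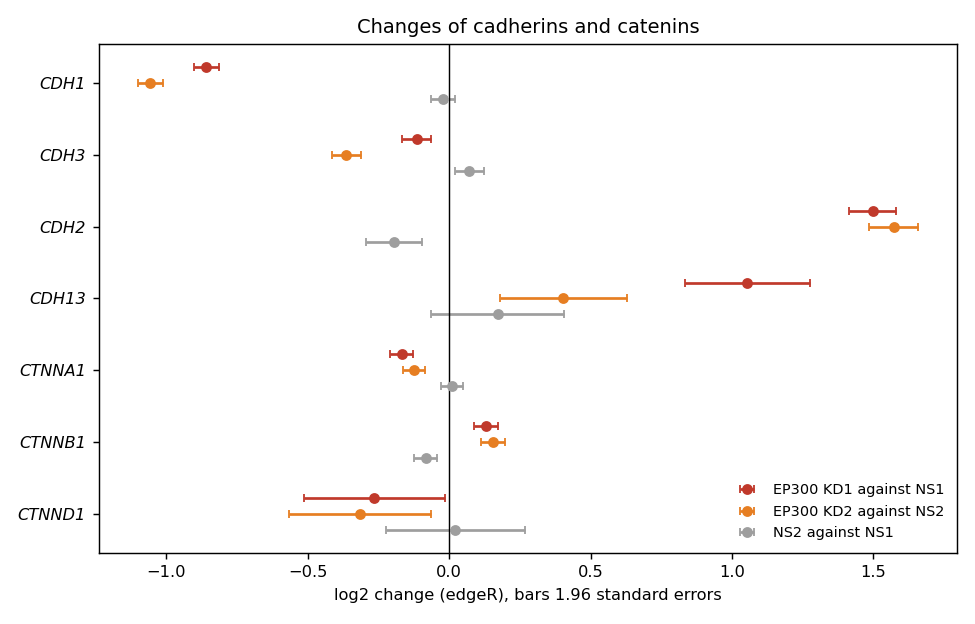
log2 change (x axis) of each cadherin and catenin (y axis) for each knockdown line against its control (red KD1, orange KD2) and for NS2 against NS1 (grey), with approximate 95% intervals from the edgeR standard errors. The interval of CTNND1 in KD1, from -0.51 to -0.014, is wholly negative, although that change did not pass the edgeR test (adjusted p = 0.077). CDH1 lies at -0.86 and -1.06 and CDH2 at 1.50 and 1.57, while the changes of CTNNA1 and CTNNB1 lie between -0.17 and 0.16.

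Per kilobase of transcript, the mean levels in NS1 followed the order CTNNA1 (288 CPM per kb), CTNNB1 (127), CDH1 (78.4), CDH3 (73.6), CDH2 (4.18), CDH13 (4.0) and CTNND1 (0.854). CDH2 (SD 0.0642) and CDH13 (SD 0.444) did not differ beyond their spread in NS1. In NS2, CDH1 at 77.2 ± 0.767 and CDH3 at 77.4 ± 2.25 CPM per kb were likewise within their spread, and CDH13 at 4.49 was above CDH2 at 3.64. In both knockdown lines CDH1 stood below CDH3: 43.2 ± 0.152 against 68.1 ± 0.726 CPM per kb in KD1, and 37.1 ± 0.350 against 60.1 ± 1.52 in KD2. CDH2 reached 11.8 ± 0.209 CPM per kb in KD1 and 10.9 ± 0.666 in KD2, above CDH13 at 8.28 ± 0.943 and 5.96 ± 0.432. P-cadherin was therefore the cadherin transcript with the highest level per length in both knockdown lines. The lengths of CDH13 and CTNND1 carry the uncertainty of their rows.

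Between the controls, 3 of the 7 genes passed (CDH3 higher, CDH2 and CTNNB1 lower in NS2), where 27.5% of all rows passed (14.2% higher, 13.4% lower). The CDH3 difference was 0.07 (adjusted p = 0.048) with overlapping libraries, and it was lost with library totals alone (0.05, adjusted p = 0.12), with upper-quartile factors (adjusted p = 0.13), with no filter (adjusted p = 0.074), with rows of a symbol summed (adjusted p = 0.052) and when any of 6 libraries was left out. Between the 2 hairpins, the changes of CDH1, CDH3 and CDH13 differed, all towards lower values in KD2, where 29.2% of all rows differed in that direction and 21.6% in the other. With library totals alone 5 of the 7 differed, and the share of higher calls over all rows was 54.8% against 42.6% with TMM. EP300 was also lower in KD2, by a difference of -0.18 (adjusted p = 0.0049) that did not pass with library totals alone (-0.11, adjusted p = 0.063).

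The counts of related genes below are to be read against the shares of all rows that passed, 32.6% higher and 32.3% lower in KD1 and 27.9% higher and 29.9% lower in KD2. Few other cadherins had enough counts to be tested. How shared reads were handled is not given, so low counts do not show that a transcript was absent. Of 19 further cadherin genes only 3 passed the filter, and each of the others had at most 70 counts over all 12 libraries, among them CDH11 (15 counts), another cadherin of mesenchymal cells. R-cadherin (CDH4), a close relative of N-cadherin, rose in both lines, from 3.58 ± 0.598 to 5.00 ± 0.584 CPM in KD1 (log2 change 0.50, adjusted p = 0.0017) and from 4.26 ± 0.187 to 9.90 ± 1.02 CPM in KD2 (1.21, adjusted p = 3.3e-08). CDH24 rose by 0.33 and 0.41. CDH26 fell, with log2 changes of -1.66 and -0.79 from control levels of 1.78 and 1.02 CPM, where its counts per library were 79 or fewer, and with pooled controls the KD2 change was -1.19.

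Other catenins and armadillo partners, which include plaque proteins of desmosomes, were tested for 8 of 12 genes. In KD1, 2 rose and 3 fell, with a median log2 change of -0.04, and in KD2, 3 rose and 4 fell, with a median of -0.15. Plakoglobin (JUP), a close relative of beta-catenin that also binds cadherin tails, fell from 379 ± 9.35 to 264 ± 11.3 CPM in KD1 (-0.52, adjusted p = 1.1e-10) and from 385 ± 15.7 to 222 ± 7.10 CPM in KD2 (-0.79). Plakophilin 2 (PKP2) fell, with log2 changes of -0.31 and -0.52. Plakoglobin thus fell while beta-catenin rose. Among the others that passed in both lines, chosen after their values were seen, PKP3 fell (-0.31 and -0.21), and PKP4 (0.15 and 0.18) and CTNNAL1 (0.19 and 0.18) rose. CTNNBIP1, an inhibitor of beta-catenin, fell in KD2 (-0.55) and did not pass in KD1 (0.06), and CTNNBL1 rose in KD2 (0.20).

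Nectins are adhesion receptors of the same junction that are tied to actin by afadin (AFDN). All 5 genes passed in both lines, where 64.9% and 57.8% of all rows did. NECTIN3 rose from 15.2 ± 0.431 to 30.3 ± 1.24 CPM in KD1 (0.99, adjusted p = 2.3e-12) and from 17.6 ± 1.26 to 26.0 ± 0.674 CPM in KD2 (0.56, adjusted p = 1.4e-08). NECTIN1 fell, with log2 changes of -0.30 and -0.26. Of the rest, NECTIN2 rose slightly (0.12 and 0.17), NECTIN4 fell (-0.23 and -0.51), and AFDN changed in opposite directions (0.08 and -0.18).

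Of 20 genes that link the junction to actin or microtubules, 3 rose and 9 fell in KD1 (median -0.03), and 4 rose and 10 fell in KD2 (median -0.06). LIMA1, an actin-binding partner of alpha-catenin, fell from 192 ± 3.82 to 128 ± 1.35 CPM in KD1 (-0.59) and from 169 ± 1.98 to 118 ± 2.24 CPM in KD2 (-0.52). AJUBA, a LIM protein that binds alpha-catenin, fell, with log2 changes of -0.90 and -0.88. The genes that rose in both lines, chosen after their values were seen, were VCL (vinculin, 0.12 and 0.07), ACTN1 (alpha-actinin, 0.31 and 0.23) and KIFC3 (0.34 and 0.43). DIAPH1 rose in KD2 (0.14) and did not pass in KD1 (-0.01).

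Genes of cadherin turnover, shedding and tyrosine phosphorylation were tested for 16 of 18. In KD1, 8 rose and 5 fell (median 0.15), and in KD2, 5 rose and 5 fell (median -0.03). The receptor phosphatase PTPRF rose from 374 ± 5.30 to 543 ± 14.3 CPM in KD1 (0.54) and from 477 ± 4.15 to 578 ± 13.9 CPM in KD2 (0.28). The kinase SRC, which phosphorylates junction proteins, rose by 0.40 and 0.22. PTPRM, a phosphatase that associates with cadherins, rose in KD1 (0.31) and fell in KD2 (-0.60). Its controls stood at 89.7 CPM in NS1 and 114 CPM in NS2, with KD1 at 111 CPM, and with both pooled the KD1 rise was 0.13 (adjusted p = 0.0019). PTPN14 fell, with log2 changes of -0.07 and -0.43, the former lost with upper-quartile scaling (adjusted p = 0.15) or when any of 7 libraries was left out. With pooled controls, PTPN14 in KD1 moved to -0.16 and PTPRF in KD2 to 0.45.

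For the beta-catenin destruction complex and the nuclear partners of beta-catenin, 12 of 14 genes were tested. In KD1, 7 rose and 2 fell (median 0.16), and in KD2, 6 rose and 3 fell (median 0.08). APC, the scaffold of the destruction complex, rose by 0.42 in KD1 and 0.09 in KD2, where it reached 0.16 with library totals alone. The kinase gene GSK3B rose in KD1 (0.35) and did not pass in KD2 (-0.04, adjusted p = 0.22). CSNK1A1, the priming kinase, fell in KD2 (-0.30) and did not pass in KD1 (-0.01, adjusted p = 0.81), although with both controls pooled it did (-0.07, adjusted p = 0.0044). TCF7L2, a DNA-binding partner of beta-catenin, fell, with log2 changes of -0.29 and -0.50. Its relatives LEF1 (1.26 and 2.02) and TCF7L1 (1.05 and 0.94), singled out after their values were seen, rose in both lines from low levels. LEF1 was at 1.24 CPM in NS1 and 0.700 CPM in NS2, and at 2.98 CPM in KD1 and 2.84 CPM in KD2. TCF7L1 was at 0.871 CPM in NS1 and 0.761 CPM in NS2, where TCF7L2 was at 61.2 and 66.1 CPM. The list therefore mixes genes that limit and genes that convey beta-catenin signalling.

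Factors known to repress CDH1, among them corepressors and chromatin enzymes, were tested for 14 of 17 genes, with 15 rows. In KD1, 7 rows rose and 4 fell (median 0.11), and in KD2, 7 rose and 3 fell (median 0.12). ZEB1, a zinc-finger repressor that binds E-boxes, was at 1.98, 2.86 and 2.65 CPM in NS1 and at 10.8, 12.8 and 12.4 CPM in KD1. In NS2 it was at 2.15, 2.23 and 2.09 CPM and in KD2 at 7.68, 7.34 and 7.75 CPM. Every knockdown library was above every control, with log2 changes of 2.26 (SE 0.11) and 1.81 (SE 0.11). SNAI1, another E-box repressor, rose from 7.75 ± 0.167 to 19.2 ± 0.573 CPM in KD1 (1.31) and from 9.58 ± 0.334 to 15.2 ± 0.498 CPM in KD2 (0.67). By its coding row, ZEB2 rose from 6.50 ± 0.641 to 22 ± 1.12 CPM in KD1 (1.76) and from 4.91 ± 0.629 to 9.08 ± 0.453 CPM in KD2 (0.88). Another ZEB2 row was tested, is included in the counts and medians of this list, and is not described here. FOXC2 rose in KD1 (1.16, adjusted p = 1.3e-11) and did not pass in KD2 (0.01, adjusted p = 0.89). The controls of FOXC2 stood at 8.49 ± 0.751 CPM in NS1 and 14 ± 0.493 in NS2, and with both pooled it passed in KD2 (0.37, adjusted p = 1.0e-05). The corepressor CTBP2 fell, with log2 changes of -0.27 and -0.38, and KLF8 fell, with log2 changes of -0.48 and -0.66. SNAI2, chosen after its values were seen, rose slightly in KD1 (0.11) and fell in KD2 (-0.14).

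Factors known to favour CDH1 expression or the epithelial state were tested for 12 of 14 genes. In KD1, 1 rose and 10 fell (median -0.66), and in KD2 none rose and 11 fell (median -0.60), where 32.3% and 29.9% of all rows fell. ELF3, an epithelial ETS factor, fell from 182 ± 4.78 to 32.4 ± 1.99 CPM in KD1 (-2.49) and from 158 ± 3.07 to 38.9 ± 1.52 CPM in KD2 (-2.02). FOXA1, a pioneer factor of luminal cells, fell from 49.3 ± 1.95 to 15.5 ± 0.811 CPM in KD1 (-1.67) and from 47.3 ± 1.64 to 23.5 ± 0.940 CPM in KD2 (-1.01). GRHL2, which activates CDH1, fell from 89.1 ± 2.43 to 41.0 ± 0.433 CPM in KD1 (-1.12) and from 91.6 ± 3.01 to 46.5 ± 1.73 CPM in KD2 (-0.97). KLF4 fell, with log2 changes of -1.15 and -1.27, and KLF5 fell too (-0.11 and -0.65). The gene that rose in KD1 was GRHL3 (0.50), which fell in KD2 (-0.36), and OVOL1 did not pass in either line (-0.32 and -0.16).

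**Figure D4:**
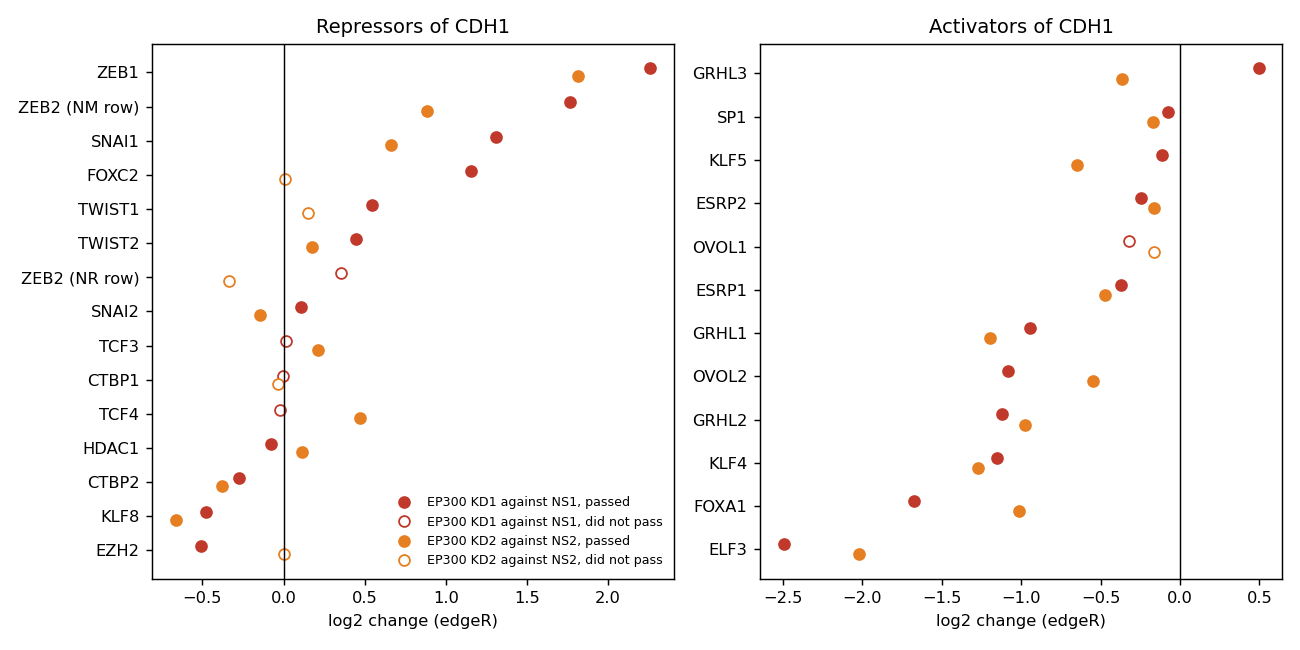
log2 change (x axis, edgeR) of each tested row (y axis), for each knockdown line against its control (red KD1, orange KD2). Repressors of CDH1 are on the left. On the right, under the title of activators, are factors that favour CDH1 expression or the epithelial state. Filled points passed the test. ZEB1, ZEB2 (the NM row) and SNAI1 lie to the right in both lines, and ELF3 lies farthest left at -2.49 and -2.02.

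Markers of cell types moved beside these changes. The summed level of 8 mammary epithelial markers was 6159 to 6266 CPM in NS1 and 4205 to 4290 CPM in KD1, and 7061 to 7145 CPM in NS2 and 3725 to 3767 CPM in KD2. EPCAM, a pan-epithelial marker, changed less than CDH1, by -0.40 and -0.13. Of the 8, with KRT8 tested by its non-coding row only, 2 rose and 6 fell in KD1, and none rose and 7 fell in KD2. Of 10 fibroblast markers, THY1 had 1 count, and COL1A2, COL3A1 and LUM had 0 counts in all 12 libraries. By sampling alone this allows up to 3 counts over them, a bound that leaves out how shared reads were handled. Of the 6 fibroblast markers tested, 5 rose and 1 fell in KD1, and 2 rose and 1 fell in KD2. DCN (decorin) rose from 7.31 to 43.3 CPM in KD1 and from 4.60 to 10.9 CPM in KD2, and FBLN1 (fibulin) fell from 30.3 to 7.84 CPM and from 15.4 to 5.76 CPM. The summed fibroblast level, in which these opposite changes add up, was 86.5 to 90.3 CPM in NS1, 118 to 122 CPM in KD1, 62.9 to 69.1 CPM in NS2 and 61.9 to 64.7 CPM in KD2. Of 8 neural markers, which include genes of cells known for N-cadherin, ELAVL4 and STMN2 were at 0 in all libraries. Their summed level went from 57.1 to 63.4 CPM in NS1 to 105 to 117 CPM in KD1 and from 42.8 to 44.0 CPM in NS2 to 117 to 125 CPM in KD2. TUBB3, a tubulin gene, made up most of that sum. Of the 3 neural markers tested, 1 rose and 1 fell in KD1, and 2 rose and none fell in KD2. MAP2 went from 7.07 to 4.76 CPM in KD1 and from 1.93 to 2.94 CPM in KD2. Of 10 leukocyte markers, PTPRC had 3 counts over all libraries. Their sum was 52.6 to 63.5 CPM in NS1, 68.3 to 75.5 CPM in KD1, 66.1 to 67.8 CPM in NS2 and 38.2 to 40.6 CPM in KD2, with 2 of 4 tested genes higher and 1 lower in each line. CD68 rose from 12.6 to 40.1 CPM in KD1 and from 17.8 to 22.9 CPM in KD2, and CD14 fell from 46.2 to 29.5 CPM and from 48.6 to 15.8 CPM. Of 7 endothelial markers, CLDN5 and EMCN were at 0 in all libraries. Their sum went down with the knockdown, from 28.8 to 32.7 CPM in NS1 to 13.9 to 16.3 CPM in KD1 and from 38.7 to 40.7 CPM in NS2 to 6.54 to 7.49 CPM in KD2. Of the 4 tested, 3 rose and 1 fell in KD1, and 1 rose and 1 fell in KD2. PECAM1 fell from 29.3 to 9.67 CPM and from 38.7 to 5.38 CPM, while TEK rose from 0.246 to 4.14 CPM and from 0.257 to 0.958 CPM. Single markers were picked for mention with their values in view. The part that the shifts of these marker sums have in the cadherin results was not tested.

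The genes with the level pattern most like a cadherin's were ranked by the root mean square difference of centred log2 CPM over the 12 libraries, among 11153 rows. For CDH1 these were EPS8 (0.0298), TMTC2 (0.0479) and SRD5A3 (0.0686). EPS8 changed by -0.81 and -0.99. For CDH2 the closest were FST (0.11), which encodes follistatin and changed by 1.33 and 1.56, and MPP1 (0.114). For CDH3 they were ERBIN (0.0278), MYO1E (0.0365) and RREB1 (0.0372), and for CDH13 they were EVI2B (0.0975), TNIP1 (0.116) and HIP1 (0.117). The libraries of a group dominate this measure, which describes these 12 libraries.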

How the data were processed

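RNA of MCF10AT cells was isolated with Trizol and made into 12 libraries with the Illumina TruSeq Stranded mRNA kit, per the labels' protocols. Per the submitters' processing notes, the authors used HISAT2 2.1.0, hg38 and featureCounts. The counter's annotation and rules for strand and shared reads were not given in the sources used here. Raw counts were deposited by the authors for 29094 RefSeq accessions, without normalisation. Symbols and coordinates came from a RefSeq table (28134 rows) and GENCODE (502 more symbols), and 458 rows with 0.307% of counts had none.

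Counts of replicates differed by more than sampling noise in every pair (chi-square per degree of freedom 1.86 to 4.54), so all 12 libraries were kept. Rows were filtered by filterByExpr, scaled by TMM and fitted with edgeR 4.0.16 (R 4.3.3) by the quasi-likelihood method, with 1 coefficient per group over all libraries and Benjamini-Hochberg adjustment over 13424 rows. Each knockdown line was set against its control, both changes against each other, and NS2 against NS1. Standard errors came from the test statistic, and lengths from the GENCODE transcript paired with each accession. The common biological coefficient of variation was 0.030, so small changes could pass. The ratio of CDH2 to CDH1 was tested by exact permutation. Alternatives were other scalings, DESeq2 1.42.0, limma-voom (limma 3.58.1), no filter, a fit to the 6 libraries compared, a replicate block, pooled controls, summed rows and leaving out each library. The procedure was run on simulated counts in which only a small share of rows changed. That run cannot show how the scaling behaves when most rows pass, as they did here.

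The members and gene lists were chosen with earlier results of these data known. Named list genes were those with the smallest p in each list, 4 for the cadherin, repressor and activator lists and 2 for the others, in either knockdown comparison. Others are named as chosen after their values were seen.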

Additional observations from a re-analysis of the deposited data

Results flagged for a closer look

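Genes are given here where the change in KD2 differed from that in KD1 by edgeR's test of the difference, as KD2 minus KD1 on the log2 scale. Such differences were common: 50.8% of all rows passed (21.6% higher, 29.2% lower). EP300 itself differed by -0.18. Among the cadherins the difference was -0.20 for CDH1, -0.25 for CDH3, -0.65 for CDH13, 0.71 for CDH4 and 0.87 for CDH26. The plaque proteins PKP2 and JUP differed by -0.21 and -0.27, and NECTIN3 by -0.43. Of 16 tested genes of cadherin turnover, 1 differed towards higher and 7 towards lower values. Among those named, PTPRM differed by -0.91, SRC by -0.18, PTPRF by -0.26 and PTPN14 by -0.36. Of 12 tested genes around beta-catenin, 3 differed towards higher and 6 towards lower values. Among those named, APC differed by -0.33, TCF7L2 by -0.21, GSK3B by -0.39 and CSNK1A1 by -0.29. Of 15 tested rows for repressors of CDH1, 4 differed towards higher and 9 towards lower values. The named repressors differed by -0.45 (ZEB1), -0.64 (SNAI1), -0.19 (KLF8), -1.14 (FOXC2), -0.10 (CTBP2) and -0.88 (ZEB2). Of 12 tested factors that favour CDH1 expression or the epithelial state, 4 differed towards higher and 4 towards lower values. Those named differed by 0.66 (FOXA1), -0.54 (KLF5), 0.14 (GRHL2) and 0.47 (ELF3). The differences of EP300, CDH26, ZEB1, KLF8, CTBP2 and GRHL2 did not pass under at least 1 alternative.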

How the results depend on the processing

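Of 2374 recomputed values, 2297 kept their direction and side of the threshold (or moved less than the spread), 46 lost the call, 8 gained one, 20 changed sign and 3 moved. CDH1 ranged from -0.87 to -0.84 in KD1 and from -1.07 to -0.99 in KD2, and CDH2 from 1.48 to 1.60 and from 1.47 to 1.64. Library totals alone gave 5 of the 7 genes a difference between hairpins against 3, and pooling the controls moved the log2 rise of the CDH2 to CDH1 ratio to 2.44 and 2.54. All sign changes were of small values that did not pass. The CTNND1 difference was 0.017 with library totals, 0.0017 with no filter and -0.15 to 0.072 with 1 library left out. For NS2 against NS1, CTNNA1 was -0.0073 with library totals, -0.0083 with upper-quartile factors and -0.0069 to 0.024 with 1 library left out, and CTNND1 then ran from -0.10 to 0.13. CSNK1A1 in KD1 was 0.013 with upper-quartile factors and -0.020 to 0.0081 with 1 library left out, but -0.069 with pooled controls, where it passed (adjusted p = 0.0044). GSK3B in KD2 was 0.025 with library totals, 0.0067 with upper-quartile factors, 0.0067 with no filter and 0.032 with pooled controls. FOXC2 in KD2 was -0.0061 to 0.053 with 1 library left out. The cause of these shifts was not tested. With a replicate block, 8748 and 7802 rows passed in KD1 and KD2, with CDH1 at -0.86 and -1.06 and CDH2 at 1.50 and 1.57. Correlations between libraries with the same number were -0.0396 to 0.0537 (median 0.016), against a median of -0.0070 for different numbers. They gave no sign of pairing by number, although a correlation over all rows cannot exclude a weak pairing. Low counts limit CDH13, CTNND1 and CDH26, and the unknown handling of shared reads leaves CDH13 and CTNND1 uncertain.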
